A study of Mus musculus with 6 samples.

Results

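The integrins, laminins and basement membrane linkers are the genes through which cells hold on to the sheet of matrix beneath them. They were taken from the deposited table by symbol, as all integrin alpha and beta genes, laminin alpha, beta and gamma genes and NID1, NID2, HSPG2, AGRN and DAG1 that the naming pattern finds, which gave 40 of 16191 rows. Of these, 16 encode integrin alpha subunits, 7 integrin beta subunits, 12 laminin chains and 5 linkers. The study compared 3 libraries labelled AAV-PDGF-D with 3 labelled AAV-GFP, described as RNA of RPE-choroids, the pigment epithelium of the eye with the vessel layer behind it, from C57BL/6J mice at 4 weeks after subretinal injection. Both vectors are AAV8 with the human VMD2 promoter, chosen to limit expression to the pigment epithelium, and deliver human PDGFD in one group and GFP in the other. The age of these mice is not in the labels, though the paper's methods give one for the C57BL/6J mice as purchased. No source used here states if each library was made from its own mouse or from a pool, so p-values measure only the spread between these libraries.

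An integrin is a pair of 1 alpha and 1 beta subunit in the cell membrane. The pair decides the ligand, so that some integrins bind collagen, some laminin, and some the short RGD motif of fibronectin and vitronectin. A laminin is a cross-shaped trimer of an alpha, a beta and a gamma chain, secreted into the basement membrane, where nidogens, perlecan and agrin link it to collagen IV and to the dystroglycan receptor. In the eye the pigment epithelium stands on Bruch's membrane, to which its own laminins and those of the choriocapillaris contribute.

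The rows of the table carry human gene IDs and human symbols although the labels name mouse tissue, and the values are therefore reported for the libraries by their labels. Of 13 rows of pigment epithelium markers, 9 reached 1 FPKM in every library, but RPE65, the isomerase of the visual cycle, was at 0.588 to 0.84 FPKM in the AAV-PDGF-D libraries and 0.792 to 1.29 FPKM in the AAV-GFP libraries, and BEST1, the gene of the VMD2 promoter, was at 0.336 to 0.503 FPKM in the AAV-PDGF-D libraries and 0.381 to 0.539 FPKM in the AAV-GFP libraries. Of 8 endothelial markers 1 reached 1 FPKM in every library, and of 7 leukocyte markers 1. Among pericyte and smooth muscle markers 7 of 8 did so, and among fibroblast markers 5 of 5. Which cells the RNA came from was not tested. FPKM are fragment counts scaled to gene length and to the total of mapped fragments, so levels of different genes are set side by side here. The annotation behind these human rows was not stated, so comparisons between genes are approximate. The row of human PDGFD, the gene in the vector, had 5.96 ± 0.627 FPKM in the AAV-PDGF-D libraries and 6.76 ± 0.178 FPKM in the AAV-GFP libraries (SD, n = 3 each; adjusted p = 0.213 from limma). In this table the row was thus not higher under the PDGF-D label. The paper, however, reports more PDGF-D transcript by real-time PCR and more protein by immunoblot in such tissue, equally long after injection. The cause of this difference was not tested. HBA1, a hemoglobin gene, was at 219 FPKM in AAV-PDGF-D replicate 3 and 168 FPKM in AAV-GFP replicate 1, while none of the remaining libraries exceeded 0.319 FPKM. The steps between the lowest values put the depth of the 6 libraries roughly within 1 to 1.19 times that of AAV-GFP replicate 1, while the absolute number of reads is unknown.

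Of the 40 genes, 26 had a mean of at least 1 FPKM and could be called, 4 had a mean between 0.1 and 1 FPKM and were tested without a possible call, and 10 were below 0.1 FPKM and were not tested. A gene was called where limma gave an adjusted p of at most 0.1 and a fold change of at least 1.5 on the log2(FPKM + 0.1) scale, which are the thresholds in the study's methods. The study used DESeq2 with them and reports more genes in both directions than were called here, so both sets of calls are not directly comparable. Of the 26 genes, 3 were called lower in the AAV-PDGF-D libraries, ITGB4, LAMA3 and ITGA11, against 1.75% called lower among all 11444 rows of that level. ITGA11 had reached the mean of 1 FPKM only through the AAV-GFP libraries, where it was high, and without it the counts were 2 called of 25 genes. None of the 26 was called higher by limma, against 2.01% of all rows. Those higher at an unadjusted p under 0.05 were the same 6 that were higher by the adjusted p alone. By the adjusted p alone, without the fold threshold, 10 were lower, 9 of 25 without ITGA11, against 11.7% of all rows, and 6 were higher, or 23.1%, against 20.9% of all rows. These 16 are also the genes whose AAV-PDGF-D and AAV-GFP libraries did not overlap, and among all rows 16.4% lay wholly below and 27.3% wholly above. The median log2 fold change was -0.06 over the 26 genes and 0.04 over all rows of that level, and the median absolute log2 fold change was 0.24 and 0.15. The genes were chosen with earlier results of these data known, and no test was run over the list as a whole.

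**Figure D1:**
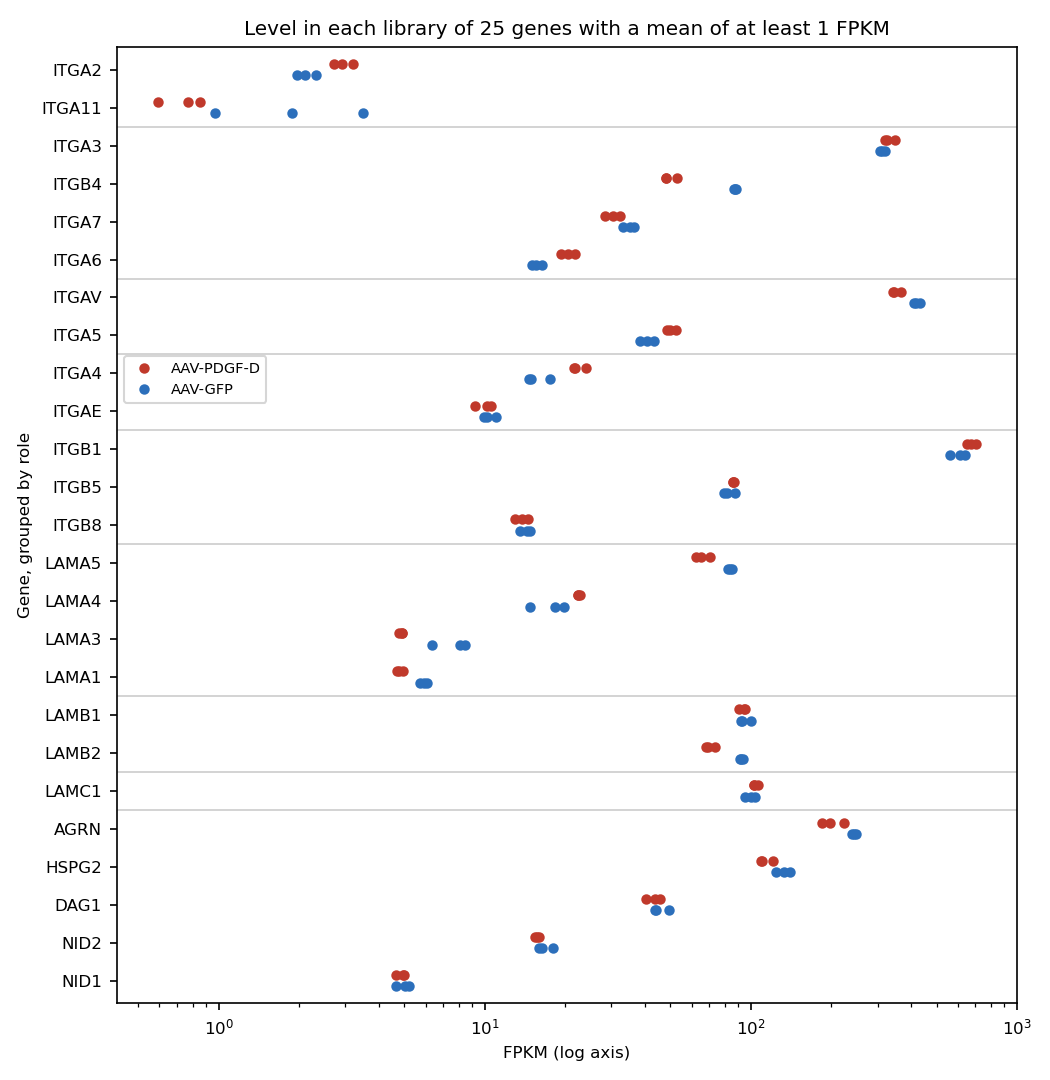
FPKM (log axis) of each of 25 genes with a mean of at least 1 FPKM, with 1 point per library and the 3 AAV-PDGF-D libraries above the 3 AAV-GFP libraries in each row; grey lines separate the role groups. ITGB1, ITGAV and ITGA3 lie between 308 and 703 FPKM in every library, and the gap between groups is wide beside the scatter for ITGB4.

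The lowest adjusted p of the 26 genes was that of ITGB4, the beta subunit that pairs only with ITGA6 and anchors epithelial cells to laminin through hemidesmosomes. ITGB4 had 52.8, 48.1 and 48.3 FPKM in the AAV-PDGF-D libraries, against 86.8, 87.1 and 88.0 FPKM in the AAV-GFP libraries. Every AAV-PDGF-D library lay far below every AAV-GFP library, and the SD was 2.65 FPKM in the AAV-PDGF-D and 0.628 FPKM in the AAV-GFP libraries (n = 3 each). The ITGB4 log2 fold change was -0.81 (95% interval -0.92 to -0.70, adjusted p = 0.000296 from limma), a level of 0.57 times that in the AAV-GFP libraries. The 13 pigment epithelium markers together were at 3259 to 3345 FPKM in the AAV-PDGF-D libraries and 3064 to 3201 FPKM in the AAV-GFP libraries, but most of that sum was KRT8, KRT18 and EZR, which other epithelia express too. Of the 10 markers with a mean of at least 1 FPKM, 4 were lower by the adjusted p and 1, KRT8, was higher. Among all rows 11.7% were lower and 20.9% higher by the adjusted p, and 1.75% were called lower. TYRP1 and PMEL, both of pigment granules, were called lower at -0.80 and -0.84, and OTX2 and SERPINF1 were lower at -0.30 and -0.33 on the log2 scale. Their part in the ITGB4 values was not tested, and in bulk RNA fewer cells of a type and less RNA per cell cannot be told apart.

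ITGA6, the partner of ITGB4 and also a partner of ITGB1, went the other way. It had 19.3, 20.7 and 21.9 FPKM in the AAV-PDGF-D libraries, against 16.4, 15.7 and 15.1 FPKM in the AAV-GFP libraries, and the groups did not overlap. Its log2 fold change of 0.39 (95% interval 0.24 to 0.54, adjusted p = 0.0074 from limma) passed the adjusted p but not the fold threshold. The ratio of ITGB4 to ITGA6 within a library, which a scaling by 1 factor per library cannot alter, was 2.74, 2.33 and 2.21 in the AAV-PDGF-D libraries, against 5.29, 5.56 and 5.84 in the AAV-GFP libraries. The ratio was looked at after the values of both genes were seen. In all 6 libraries there was more ITGB4 than ITGA6 RNA per length of gene.

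The most abundant laminin receptor subunit was ITGA3, a partner of ITGB1 that binds laminins with the LAMA3 or LAMA5 chain, with rank 224 by mean among all 16191 rows. It had 348, 326 and 319 FPKM in the AAV-PDGF-D libraries, against 321, 311 and 308 FPKM in the AAV-GFP libraries. The groups overlapped, and the log2 fold change of ITGA3 was 0.08 (95% interval -0.03 to 0.18, adjusted p = 0.275 from limma). ITGA7, a laminin receptor best known from muscle, averaged 30.3 ± 2.03 FPKM in the AAV-PDGF-D libraries and 34.9 ± 1.77 FPKM in the AAV-GFP libraries (SD, n = 3 each), with a log2 fold change of -0.21 (adjusted p = 0.0598 from limma), under the fold threshold. ITGA7 no longer passed the adjusted p without AAV-PDGF-D replicate 2 (0.135), AAV-PDGF-D replicate 3 (0.164), AAV-GFP replicate 2 (0.157) or AAV-GFP replicate 3 (0.142, all from limma), nor without a variance trend (0.125). Thus the 4 laminin receptor subunits, all expressed at 1 FPKM or more, held 1 called lower, 1 lower and 1 higher by the adjusted p alone, and 1 that did not pass. Among all rows 1.75% were called lower, and by the adjusted p 11.7% were lower and 20.9% higher.

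Genes of 3 other hemidesmosome parts did not pass the adjusted p, although PLEC did under quantile normalization (0.0572 from limma). PLEC, which encodes plectin and ties ITGB4 to keratin filaments, averaged 105 ± 6.16 FPKM in the AAV-PDGF-D libraries and 111 ± 2.82 FPKM in the AAV-GFP libraries (SD, n = 3 each). CD151, a tetraspanin that associates with laminin-binding integrins, averaged 381 ± 26.3 FPKM in the AAV-PDGF-D libraries and 406 ± 14.0 FPKM in the AAV-GFP libraries, and DST, which encodes dystonin, 52.2 ± 1.15 FPKM in the AAV-PDGF-D libraries and 48.0 ± 4.5 FPKM in the AAV-GFP libraries (SD, n = 3 each). COL17A1, the hemidesmosome collagen, was at most 0.0154 FPKM in any library.

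Among subunits that recognise the RGD motif, ITGAV and ITGA5 moved apart. ITGAV, which pairs with ITGB1, ITGB5, ITGB6 or ITGB8 and serves as a receptor for vitronectin and latent TGF-beta, had 346, 343 and 366 FPKM in the AAV-PDGF-D libraries, against 411, 432 and 420.2 FPKM in the AAV-GFP libraries. All AAV-PDGF-D libraries were below all AAV-GFP libraries. Its log2 fold change was -0.26 (95% interval -0.36 to -0.16, adjusted p = 0.00695 from limma), which did not reach the fold threshold.

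ITGA5, the alpha subunit of the main fibronectin receptor with ITGB1, had 52.6, 49.99 and 48.7 FPKM in the AAV-PDGF-D libraries, against 40.9, 43.3 and 38.2 FPKM in the AAV-GFP libraries. The groups did not overlap, and the log2 fold change of ITGA5 was 0.31 (95% interval 0.17 to 0.44, adjusted p = 0.0108 from limma), also under the fold threshold. ITGAV stayed the more abundant of both in every library. The ratio of ITGA5 to ITGAV, again chosen after the values were seen, was 0.133 to 0.152 in the AAV-PDGF-D libraries and 0.091 to 0.1 in the AAV-GFP libraries. ITGA2B, the platelet subunit, and ITGA8, a receptor of mesangial and smooth muscle cells, were at most 0.107 and 0.0575 FPKM in any library and were not tested.

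ITGB1, the partner of most alpha subunits here, was the most abundant of the 40 genes, with rank 113 among all rows. It had 650.4, 675 and 703 FPKM in the AAV-PDGF-D libraries, against 611, 641 and 559.7 FPKM in the AAV-GFP libraries. The lowest AAV-PDGF-D library lay just above the highest AAV-GFP library. The log2 fold change of ITGB1 was 0.17 (95% interval 0.03 to 0.30, adjusted p = 0.0842 from limma), close to the limit for the adjusted p. It no longer passed under TPM, median-of-ratios or quantile scaling (adjusted p = 0.166, 0.173 and 0.281), without a filter on the mean (0.119) or a variance trend (0.178), nor without AAV-PDGF-D replicate 2 (0.169), AAV-PDGF-D replicate 3 (0.219), AAV-GFP replicate 1 (0.15) or AAV-GFP replicate 3 (0.221, all from limma). ITGB5, the vitronectin receptor beta subunit that works with ITGAV in the uptake of photoreceptor outer segments, averaged 86.1 ± 0.676 FPKM in the AAV-PDGF-D libraries and 82.8 ± 4.07 FPKM in the AAV-GFP libraries (SD, n = 3 each; adjusted p = 0.436 from limma). ITGB8, which binds latent TGF-beta with ITGAV, averaged 13.8 ± 0.8 FPKM in the AAV-PDGF-D libraries and 14.3 ± 0.62 FPKM in the AAV-GFP libraries (SD, n = 3 each; adjusted p = 0.686 from limma). ITGB6, an epithelial subunit, was at 0.222 to 0.33 FPKM in the AAV-PDGF-D libraries and 0.279 to 0.535 FPKM in the AAV-GFP libraries, too low for a call.

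Of the collagen receptors, 2 of 3 reached a mean of 1 FPKM. ITGA2, a receptor for collagen and, in some cells, laminin, had 2.72, 2.90 and 3.20 FPKM in the AAV-PDGF-D libraries, against 1.96, 2.33 and 2.11 FPKM in the AAV-GFP libraries. All AAV-PDGF-D libraries were above all AAV-GFP libraries, with a log2 fold change of 0.44 (95% interval 0.16 to 0.73, adjusted p = 0.0393 from limma) that did not reach the fold threshold. The adjusted p of ITGA2 was 0.118 without AAV-PDGF-D replicate 3 and 0.107 without AAV-GFP replicate 1, by limma. ITGA11, a receptor for fibrillar collagen typical of fibroblasts, had 0.851, 0.771 and 0.59 FPKM in the AAV-PDGF-D libraries, against 0.972, 3.49 and 1.89 FPKM in the AAV-GFP libraries. The AAV-GFP libraries differed from each other more than AAV-GFP replicate 1 differed from the AAV-PDGF-D libraries. The ITGA11 log2 fold change was -1.25 (95% interval -2.15 to -0.35, adjusted p = 0.0578 from limma). The call of ITGA11 was lost without AAV-GFP replicate 2, where the log2 fold change was -0.81 (adjusted p = 0.118), and without AAV-GFP replicate 3 (-1.24, adjusted p = 0.141), AAV-PDGF-D replicate 2 (-1.28, adjusted p = 0.116) or AAV-PDGF-D replicate 3 (-1.11, adjusted p = 0.159), and also without a variance trend (adjusted p = 0.12). Over all alternatives its adjusted p ran from 0.0167 to 0.159 by limma. ITGA10 was at most 0.111 FPKM in any library. ITGA1, another collagen receptor subunit, was not analysed here, nor was ITGB3 among the beta subunits.

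The summed level of 5 fibroblast markers, the cells in which ITGA11 is best known, was 188 to 206 FPKM in the AAV-PDGF-D libraries and 209 to 251 FPKM in the AAV-GFP libraries, with all 5 markers at 1 FPKM or more in every library. Most of that sum was COL1A1, whose groups overlapped (adjusted p = 0.425 from limma). By limma 0 of the 5 were called, against 2.01% called higher and 1.75% called lower among all rows. By the adjusted p alone 3 were lower, against 11.7% of all rows. PDGFRA was higher, at 0.21 on the log2 scale, but did not pass (adjusted p = 0.113 from limma). The 8 pericyte and smooth muscle markers summed to 1786 to 1869 FPKM in the AAV-PDGF-D libraries and 1900 to 2068 FPKM in the AAV-GFP libraries, with MYH11 near 0. Most of that sum was TAGLN, whose groups overlapped (adjusted p = 0.239 from limma). Of the 7 with a mean of at least 1 FPKM, none was called, against the same 2.01% and 1.75% of all rows. By the adjusted p alone 3 were lower and 1, DES, was higher, against 11.7% and 20.9% of all rows. The part of these cells in the ITGA11 values was not tested.

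**Figure D2:**
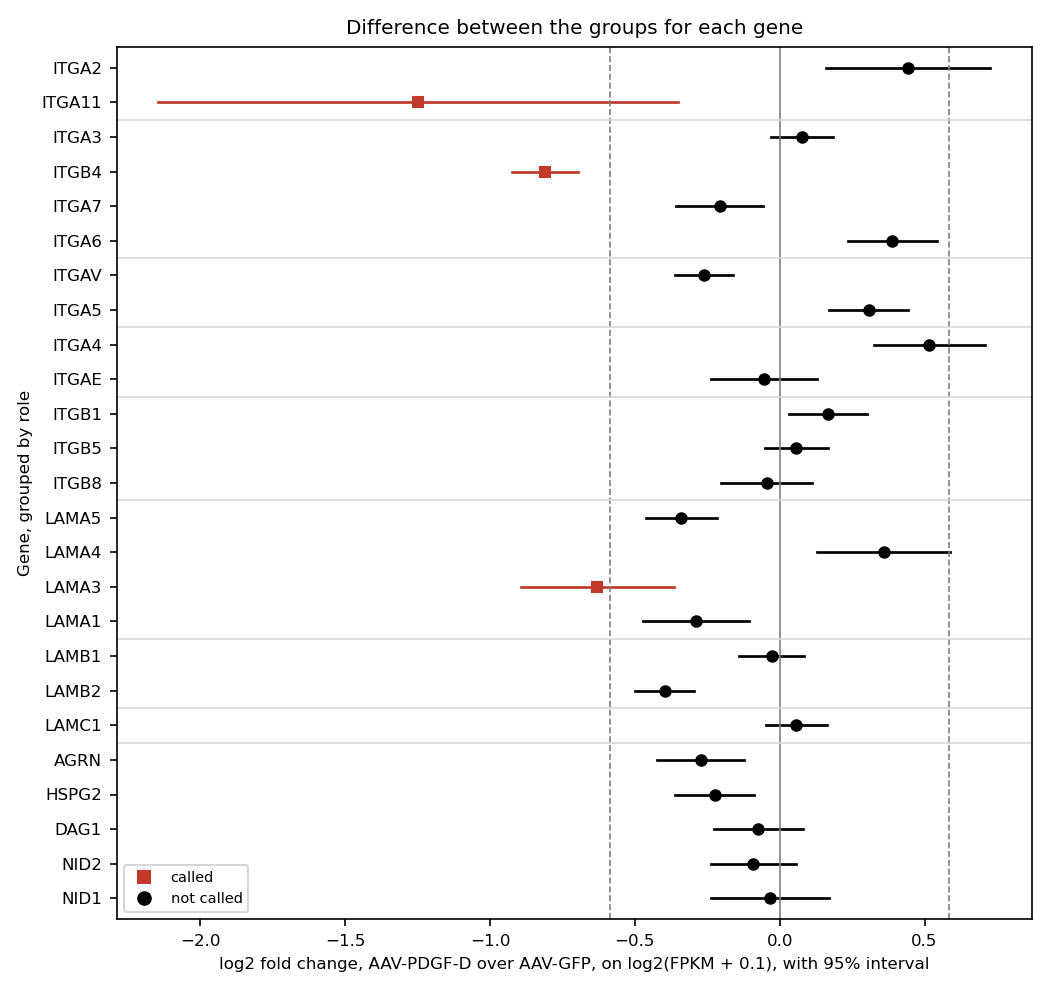
Log2 fold change of the AAV-PDGF-D over the AAV-GFP libraries on the log2(FPKM + 0.1) scale for the same 25 genes, with the 95% interval from limma as a bar; dashed lines mark a fold change of 1.5 in either direction and red squares the called genes. ITGB4, LAMA3 and ITGA11 lie beyond the left dashed line, and ITGA4 at 0.52 comes nearest to the right one.

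ITGA4, the subunit that binds VCAM1 and fibronectin and is best known from leukocytes, had 24.1, 21.8 and 21.9 FPKM in the AAV-PDGF-D libraries, against 14.7, 17.7 and 14.97 FPKM in the AAV-GFP libraries. The groups did not overlap, and the log2 fold change of 0.52 (95% interval 0.33 to 0.71, adjusted p = 0.00604 from limma) was the highest among the 26 genes. It fell short of the fold threshold, and ITGA4 was called higher without AAV-GFP replicate 2, at 0.60. The leukocyte integrins proper were hardly present. ITGB2, the common beta subunit of leukocytes, was at most 0.0972 FPKM and listed at 0 in 3 of the 6 libraries. ITGAL, ITGAM, ITGB7 and ITGA9 had means below 0.1 FPKM and were not tested, and ITGAX was at 0.0813 to 0.161 FPKM in the AAV-PDGF-D libraries and 0.109 to 0.205 FPKM in the AAV-GFP libraries. The 7 leukocyte markers summed to 22.3 to 22.7 FPKM in the AAV-PDGF-D libraries and 19.1 to 21.4 FPKM in the AAV-GFP libraries, most of it CD68. Of the 7, 2 had a mean of at least 1 FPKM, and they differed in direction. CD68 was higher by the adjusted p alone (0.20 on the log2 scale, adjusted p = 0.0531 from limma), against 20.9% of all rows. CSF1R, a receptor of macrophages, was called lower, against 1.75% of all rows. It was at 0.697 FPKM in the AAV-PDGF-D libraries and 1.46 FPKM in the AAV-GFP libraries (log2 fold change -0.95, adjusted p = 0.023 from limma). CSF1R had reached the mean of 1 FPKM only through the AAV-GFP libraries, where it was high. The part of leukocytes in the ITGA4 values was not tested. The general leukocyte marker PTPRC averaged 0.0231 FPKM in the AAV-PDGF-D libraries and 0.04 FPKM in the AAV-GFP libraries. ITGAE, which binds E-cadherin and is known from T cells in epithelia, stood apart from them at 9.22 to 10.6 FPKM in the AAV-PDGF-D libraries and 9.99 to 11.04 FPKM in the AAV-GFP libraries (adjusted p = 0.674 from limma). The human kinase gene HASPIN lies within the ITGAE gene, and nothing in the sources used here says whether counting used the strand, so the reads of the pair may not be separate.

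Of the laminin alpha chains, LAMA5 was the most abundant and was lower in the AAV-PDGF-D libraries, while LAMA4 was higher. LAMA5, the broad epithelial and endothelial chain, had 70.3, 65.2 and 62.4 FPKM in the AAV-PDGF-D libraries, against 81.9, 84.8 and 83.4 FPKM in the AAV-GFP libraries. The groups did not overlap, and the log2 fold change of LAMA5 was -0.34 (95% interval -0.46 to -0.22, adjusted p = 0.00533 from limma), under the fold threshold. LAMA4, the chain of endothelial and mesenchymal basement membranes, had 22.4, 22.4 and 22.8 FPKM in the AAV-PDGF-D libraries, against 18.4, 19.9 and 14.8 FPKM in the AAV-GFP libraries. All AAV-PDGF-D libraries were higher and nearly equal, and the log2 fold change of LAMA4 was 0.36 (95% interval 0.13 to 0.59, adjusted p = 0.0406 from limma), again under the fold threshold, and an adjusted p of 0.106 without AAV-PDGF-D replicate 3. The ratio of LAMA4 to LAMA5, chosen after the values were seen, was 0.319, 0.343 and 0.365 in the AAV-PDGF-D libraries, against 0.224, 0.234 and 0.178 in the AAV-GFP libraries. Of 8 endothelial markers only KDR had a mean of at least 1 FPKM, and their summed level was 8.93 to 10.04 FPKM in the AAV-PDGF-D libraries and 10.9 to 11.2 FPKM in the AAV-GFP libraries, nearly all of it KDR (log2 fold change -0.21, adjusted p = 0.0806 from limma). VWF averaged 0.212 FPKM in the AAV-PDGF-D libraries and 0.153 FPKM in the AAV-GFP libraries, and the part of these cells in the LAMA4 values was not tested.

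LAMA3, the alpha chain of the epithelial laminin that ITGB4 with ITGA6 and ITGA3 with ITGB1 bind, was called lower. It had 4.88, 4.76 and 4.88 FPKM in the AAV-PDGF-D libraries, against 8.07, 6.33 and 8.42 FPKM in the AAV-GFP libraries. The AAV-PDGF-D libraries were close to each other and all below the AAV-GFP libraries, of which AAV-GFP replicate 2 was the lowest. The log2 fold change of LAMA3 was -0.63 (95% interval -0.89 to -0.37, adjusted p = 0.00891 from limma). The call lay near the fold threshold and was lost without AAV-GFP replicate 1, at -0.58, without AAV-GFP replicate 3, at -0.55, and with a pseudocount of 1 FPKM, at -0.55, with an adjusted p of 0.00539 to 0.0887 over all alternatives by limma. LAMB3, the beta chain of the same trimer, was scarce, at 0.154 to 0.297 FPKM in the AAV-PDGF-D libraries and 0.205 to 0.351 FPKM in the AAV-GFP libraries.

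LAMA1, a chain of early and specialised basement membranes, was at 4.79, 4.70 and 4.94 FPKM in the AAV-PDGF-D libraries, against 5.72, 5.91 and 6.06 FPKM in the AAV-GFP libraries, with a log2 fold change of -0.29 (adjusted p = 0.0389 from limma, 0.114 without AAV-PDGF-D replicate 2 and 0.109 without AAV-GFP replicate 3). LAMA2, the muscle and nerve chain, was at 0.773 to 1.10 FPKM in the AAV-PDGF-D libraries and 0.722 to 0.793 FPKM in the AAV-GFP libraries, below the mean needed for a call. Thus, of the 4 laminin alpha genes that could be called, 3 were lower and 1 was higher by the adjusted p. Among all rows these shares were 11.7% and 20.9%. The summed level of the 4 genes with LAMA2 was 95.8 to 104 FPKM in the AAV-PDGF-D libraries and 113 to 118 FPKM in the AAV-GFP libraries.

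The beta chains LAMB1 and LAMB2, which replace each other in laminin trimers, were of similar level, and 1 of them passed the adjusted p. LAMB2, the chain of mature and synaptic basement membranes, had 73.4, 68.9 and 68.3 FPKM in the AAV-PDGF-D libraries, against 91.6, 92.3 and 93.4 FPKM in the AAV-GFP libraries. The distance between the groups was many times the spread within them, and the log2 fold change of LAMB2 was -0.40 (95% interval -0.50 to -0.30, adjusted p = 0.00188 from limma), under the fold threshold. LAMB1 had 90.4, 94.9 and 94.6 FPKM in the AAV-PDGF-D libraries, against 92.4, 100.5 and 92.6 FPKM in the AAV-GFP libraries. These overlapped, with a log2 fold change of -0.03 (95% interval -0.14 to 0.09, adjusted p = 0.74 from limma). The ratio of LAMB2 to LAMB1, chosen after the values were seen, was 0.812, 0.726 and 0.721 in the AAV-PDGF-D libraries, against 0.991, 0.919 and 1.01 in the AAV-GFP libraries. LAMB4 was at most 0.075 FPKM in any library.

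LAMC1, the gamma chain of most laminins, had 103, 103 and 107 FPKM in the AAV-PDGF-D libraries, against 101, 104 and 95.6 FPKM in the AAV-GFP libraries. The groups overlapped, and the log2 fold change of LAMC1 was 0.06 (95% interval -0.05 to 0.16, adjusted p = 0.423 from limma). LAMC3 was at most 0.0351 FPKM in any library and was not tested.

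**Figure D3:**
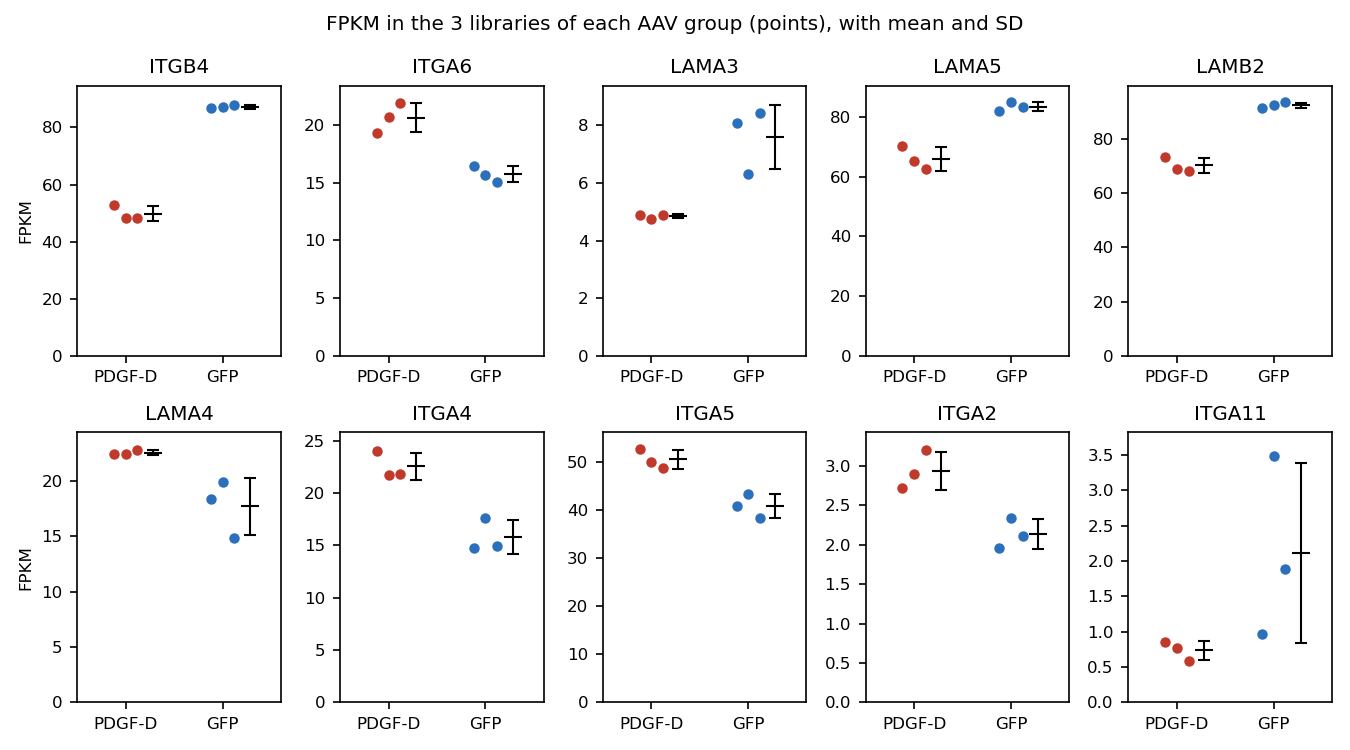
FPKM of the 10 genes that were called or whose groups did not overlap with an absolute log2 fold change of at least 0.3, with 1 point per library and the mean and SD of each group as a bar (n = 3 each, AAV-PDGF-D left, AAV-GFP right, axes from 0). ITGB4 lies near 50 FPKM in the AAV-PDGF-D libraries against 87 FPKM in the AAV-GFP libraries, whereas the ITGA11 points of AAV-GFP spread from 0.972 to 3.49 FPKM.

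AGRN, the heparan sulfate proteoglycan agrin that binds laminin and dystroglycan, was the most abundant linker. It had 224, 199.6 and 186 FPKM in the AAV-PDGF-D libraries, against 240.3, 244 and 249.7 FPKM in the AAV-GFP libraries. The groups did not overlap, with a log2 fold change of -0.27 (95% interval -0.42 to -0.12, adjusted p = 0.0237 from limma). HSPG2, which encodes perlecan, averaged 114 ± 6.19 FPKM in the AAV-PDGF-D libraries and 133 ± 7.94 FPKM in the AAV-GFP libraries (SD, n = 3 each), with -0.22 (adjusted p = 0.0324 from limma, 0.103 without AAV-PDGF-D replicate 2 and 0.1004 without AAV-PDGF-D replicate 3). Neither proteoglycan reached the fold threshold. The nidogens, which join laminin to collagen IV, and DAG1, which encodes both dystroglycan subunits, did not pass the adjusted p. NID2 averaged 15.7 ± 0.265 FPKM in the AAV-PDGF-D libraries and 16.8 ± 1.07 FPKM in the AAV-GFP libraries, with a log2 fold change of -0.09 (adjusted p = 0.348 from limma). NID1 averaged 4.85 ± 0.198 FPKM in the AAV-PDGF-D libraries and 4.97 ± 0.285 FPKM in the AAV-GFP libraries (-0.03, adjusted p = 0.832). DAG1 averaged 43.3 ± 2.68 FPKM in the AAV-PDGF-D libraries and 45.6 ± 3.09 FPKM in the AAV-GFP libraries (-0.07, adjusted p = 0.477, SD and n = 3 each).

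The make-up of each kind of chain can be read as the share of a gene in the summed FPKM of its kind. Among integrin beta genes, ITGB1 took 81.1% to 82.5% in the AAV-PDGF-D libraries and 75.3% to 77.2% in the AAV-GFP libraries. ITGB4 took 6.03% ± 0.486 in the AAV-PDGF-D libraries and 11.1% ± 0.689 in the AAV-GFP libraries (SD, n = 3 each), and ITGB5 10.4% ± 0.344 in the AAV-PDGF-D libraries and 10.5% ± 0.451 in the AAV-GFP libraries. Among integrin alpha genes, ITGAV took 42.9% ± 1.69 and ITGA3 40.3% ± 1.38 in the AAV-PDGF-D libraries, against 49.2% ± 0.74 and 36.6% ± 1.11 in the AAV-GFP libraries, so that both subunits together made up most of the alpha RNA in every library. Among laminin alpha genes, LAMA5 took 66.5% ± 1.4 in the AAV-PDGF-D libraries and 72.3% ± 1.12 in the AAV-GFP libraries, and LAMA4 took 22.8% ± 1.07 in the AAV-PDGF-D libraries and 15.3% ± 2.0 in the AAV-GFP libraries. LAMB1 took 57.0% ± 1.64 of the laminin beta sum in the AAV-PDGF-D libraries and 50.6% ± 1.27 in the AAV-GFP libraries. These shares are descriptions with no test, and a share rises when another gene of its kind falls.

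**Figure D4:**
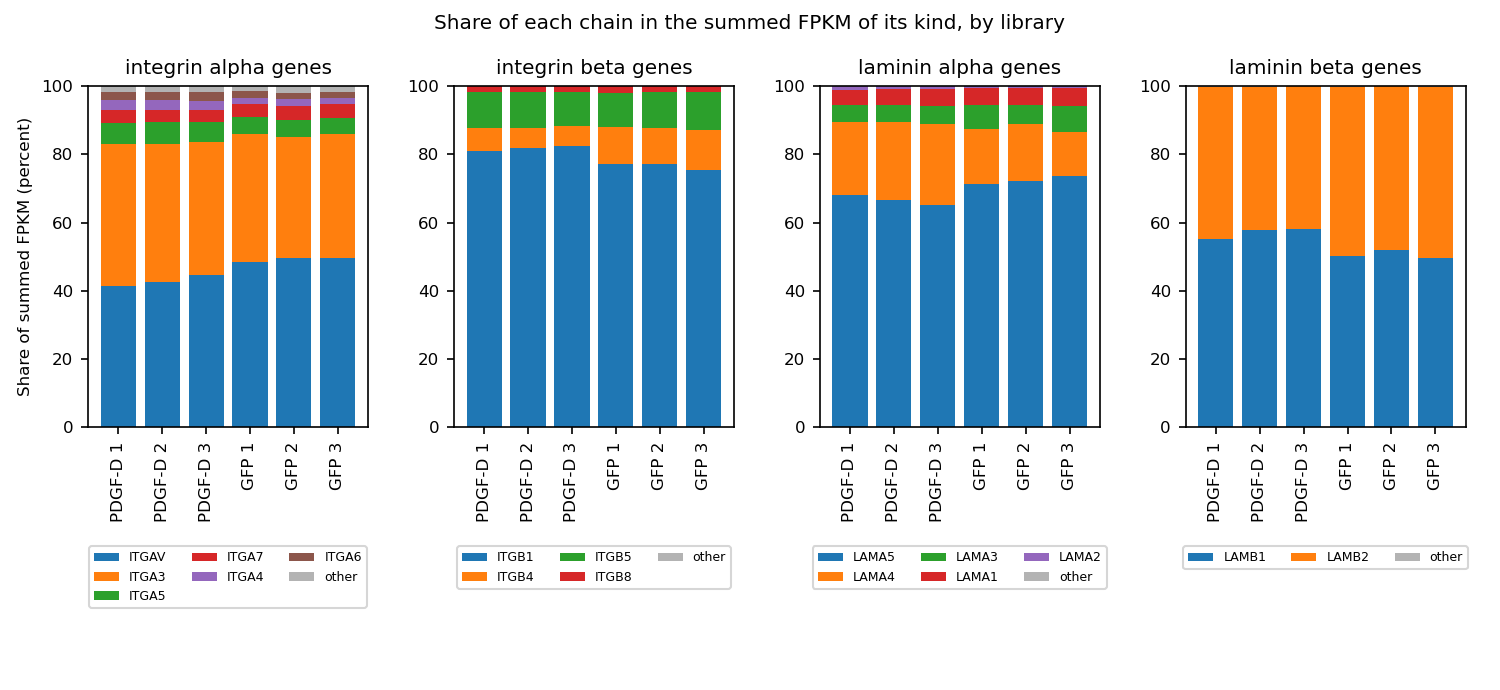
Share, in percent of the summed FPKM of its kind, of the integrin alpha, integrin beta, laminin alpha and laminin beta genes in each of the 6 libraries, as stacked bars in which the scarcest genes are pooled as other, with the 3 AAV-PDGF-D libraries left of the 3 AAV-GFP libraries. ITGB4 makes up 5.67% to 6.58% of the beta sum in the AAV-PDGF-D libraries and 10.5% to 11.8% in the AAV-GFP libraries.

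Genes around these receptors and ligands were read from lists of the same pathway. Of 25 integrin adaptor genes with a mean of at least 1 FPKM, 1 was called higher and 1 lower, against 2.01% and 1.75% of all rows. By the adjusted p alone 5 were higher and 6 lower, against 20.9% and 11.7% of all rows, so the 5 are near that background. The most abundant were ACTN4 and ACTN1, the actin crosslinkers alpha-actinin, of which ACTN4 averaged 581 ± 6.18 FPKM in the AAV-PDGF-D libraries and 651 ± 12.9 FPKM in the AAV-GFP libraries and ACTN1 501 ± 10.8 FPKM in the AAV-PDGF-D libraries and 489 ± 33.6 FPKM in the AAV-GFP libraries (SD, n = 3 each). FERMT1, an epithelial kindlin that activates integrins by binding the beta tail, was called higher. It had 3.36, 3.50 and 3.60 FPKM in the AAV-PDGF-D libraries, against 1.77, 2.04 and 1.76 FPKM in the AAV-GFP libraries, a difference of 0.88 ± 0.11 on the log2 scale (SE, adjusted p = 0.00311 from limma). PTK2B, a kinase related to focal adhesion kinase, was called lower, with 1.81, 1.90 and 0.613 FPKM in the AAV-PDGF-D libraries, against 2.36, 2.67 and 3.54 FPKM in the AAV-GFP libraries (log2 fold change -1.06, standard error 0.38, adjusted p = 0.0835 from limma). AAV-PDGF-D replicate 3 lay far below the others, and without it the log2 fold change of PTK2B was -0.58 and the call was lost. The call was also lost without AAV-GFP replicate 1 (adjusted p = 0.121), AAV-GFP replicate 2 (0.141) or AAV-GFP replicate 3 (0.227), without a filter on the mean (0.116) and without a variance trend (0.159, all from limma), whereas FERMT1 was called in all 19 alternatives.

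Of 16 other integrin ligand genes with a mean of at least 1 FPKM, 1 was called lower and none higher by limma, against 1.75% and 2.01% of all rows. VTN, which encodes vitronectin, a ligand of ITGAV integrins, had 3.95, 3.93 and 4.02 FPKM in the AAV-PDGF-D libraries, against 5.85, 6.38 and 6.90 FPKM in the AAV-GFP libraries (log2 fold change -0.67, standard error 0.09, adjusted p = 0.00359 from limma). The call of VTN was lost only with a pseudocount of 1 FPKM, at -0.57, among the 19 alternatives. By the adjusted p alone 6 of these ligands were lower and 2 higher, against 11.7% and 20.9% of all rows. CTGF, a matricellular protein, and FN1, fibronectin, the ligand of ITGA5, were the most abundant and did not pass, FN1 with 443 ± 9.65 FPKM in the AAV-PDGF-D libraries and 436 ± 53.4 FPKM in the AAV-GFP libraries and CTGF with 946 ± 44.7 FPKM in the AAV-PDGF-D libraries and 1002 ± 91.8 FPKM in the AAV-GFP libraries (SD, n = 3 each).

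None of 10 other basement membrane genes at that level was called by limma, against 2.01% called higher and 1.75% called lower among all rows. By the adjusted p alone 3 were lower and 1 was higher, against 11.7% and 20.9% of all rows. SPARC, a collagen-binding matricellular protein, averaged 563 ± 10.3 FPKM in the AAV-PDGF-D libraries and 492 ± 36.9 FPKM in the AAV-GFP libraries (SD, n = 3 each; adjusted p = 0.0443 from limma, 0.135 without AAV-GFP replicate 1 and 0.134 without AAV-GFP replicate 3). It did not pass either under median-of-ratios scaling (0.106), quantile normalization (0.304, at 0.10 on the log2 scale) or without a variance trend (0.12). COL18A1, the collagen that carries endostatin, averaged 389.95 ± 41.6 FPKM in the AAV-PDGF-D libraries and 508 ± 37.3 FPKM in the AAV-GFP libraries (SD, n = 3 each; log2 fold change -0.38, adjusted p = 0.0158 from limma). Of 8 partners of dystroglycan in the membrane and the cytoskeleton, 1, SSPN, which encodes sarcospan, was lower by the adjusted p alone, against 11.7% of all rows, with a log2 fold change of -0.42 (adjusted p = 0.00838 from limma). Of 13 genes for the sugar chain on dystroglycan that laminin and agrin bind, none was called, against 2.01% higher and 1.75% lower among all rows. By the adjusted p alone 2 were higher and none lower, no more than the 20.9% and 11.7% of all rows. The 2 were TMEM5 with a log2 fold change of 0.23 (adjusted p = 0.0647 from limma) and GMPPB with 0.27 (adjusted p = 0.0357 from limma). Without AAV-PDGF-D replicate 2 the adjusted p was 0.193 for TMEM5 and 0.121 for GMPPB, and for TMEM5 it was 0.128 without AAV-GFP replicate 2 and 0.179 without AAV-GFP replicate 3, 0.105 under median-of-ratios scaling and 0.115 without a variance trend, by limma.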

How the data were processed

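The deposited table holds FPKM, which the authors computed per gene and library. According to their methods, reads were aligned to mouse mm10 by STAR 2.4.2a and quantified by RSEM 1.2.29. The rows, however, are 15504 human Ensembl IDs and 687 new human genes, and for these the build and annotation were not stated in any source used here. Without counts, no count model was run. Libraries labelled AAV-PDGF-D and AAV-GFP (n = 3 each) were set against each other in limma 3.58.1 (R 4.3.3) with a variance trend on log2(FPKM + 0.1), a scale that understates changes of low genes. The fit took the 13821 rows whose mean reached 0.1 FPKM and p was adjusted by Benjamini and Hochberg over all of them. With 3 libraries each, an exact permutation test has a smallest p of 0.1. Relative depth came from the modal step between the lowest values. The script was tested on simulated data, where 22 of 50 genes changed 1.5-fold and 50 of 50 changed 2-fold were called among 13753 rows. The changed genes had a mean of at least 2 FPKM, and the noise followed the typical spread at each level. The simulation therefore does not cover scarcer genes or those with a wider spread, such as ITGA11. Given in full are called genes, genes whose groups did not overlap with an absolute log2 fold change of at least 0.3, and the most abundant gene of each role. Genes, lists and alternatives were chosen with earlier results of these data known. The alternatives were other pseudocounts, filters, scalings, a fit without a variance trend, other thresholds, the replicate number as block, and dropping single libraries or the pair with hemoglobin. Rows of some genes of the families are not analysed here. Of the genes counted, 1 is not reported here by name or drawn. No sequences are shown.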

Additional observations from a re-analysis of the deposited data

How the results depend on the processing

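Over 30 tested genes and all alternatives, 9 calls were lost and 14 gained, 13 of them by dropping the fold threshold, and no called gene changed sign. Genes that were not called did so near 0: ITGB5 (-0.0015), LAMC1 (-0.026) and ACTN1 (-0.0032) under quantile normalization, and ACTN1 (-0.0079) and FN1 (-0.017) under median-of-ratios and FN1 (-0.0018) under TPM scaling. Leaving out 1 library gave -0.0968 to 0.0036 for ITGAE, -0.0482 to 0.0123 for LAMB1, -0.0785 to 0.0014 for NID1, -0.01376 to 0.0855 for ACTN1 and -0.04944 to 0.1229 for FN1. Of the 16 genes past the adjusted p, 8 exceeded 0.1 in at least 1 alternative. Without the fold threshold, 6 of the 40 genes were called higher and 10 lower, against 0 and 3, and over all rows 2396 higher and 1341 lower, against 230 and 200. ITGB4 was called lower in all 19 alternatives (log2 fold change -0.87 to -0.79), LAMA3 in all but 3 and ITGA11 in all but 6. Dropping the fold threshold or the minimum on the mean only loosened the rule, so no gene could lose its call there. Leaving out 1 library gave 0 to 1 genes of the list called higher and 1 to 3 lower, with 1 lower without AAV-GFP replicate 3 and ITGA4 higher without AAV-GFP replicate 2, and over all rows 213 to 271 higher and 140 to 232 lower. Over all rows a pseudocount of 1 gave 148 higher and 110 lower, TPM scaling 323 lower, and no minimum on the mean 321 lower. The share of calls that were higher was 53.5%, but 41.5% with median-of-ratios scaling, 62.4% without AAV-GFP replicate 3 and 64.1% without the fold threshold, with no cause tested. No scaling moved the median of all rows by over 0.1. With the replicate number as a block, 0 of the 40 genes were called higher and 3 lower, and 234 and 199 of all rows, while the call of PTK2B (0.108) and the adjusted p of ITGA7 (0.117), ITGB1 (0.16) and TMEM5 (0.101) were lost. The correlation of residuals between libraries of one number was -0.20, 0.0039 and -0.14, and no library correlated best with that of its own number. The residuals thus gave no sign of a pairing by number, but with 3 libraries per group they could not exclude one. The highest correlation, 0.29, was between the libraries with hemoglobin. Without both libraries with hemoglobin, ITGB4, LAMA3 and ITGA11 were called lower, at -0.79, -0.59 and -1.55, and the adjusted p of AGRN, HSPG2, ITGA2, ITGA7, ITGB1, LAMA1, LAMA4, ACTN4, COL18A1, GMPPB and SPARC exceeded 0.1. The absolute depth is unknown, and the 10 genes under 0.1 FPKM cannot be compared.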
